A study of Mus musculus with 2 samples.

Results

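Prostaglandins are made, sensed and removed by cells of the uterus, and the 10 genes described here cover those steps. They are Ptgs1, Ptgs2, Ptges, Ptgis, Ptgds, Ptgfr, Ptger2, Ptger3, Ptger4 and Hpgd, chosen by gene symbol from the 32285 genes of the count files, and all 10 were found there once. They were measured by droplet single-cell RNA sequencing in 2 libraries of mouse uterus. The library labelled control came from Prickle1 f/f females and the library labelled cKO from Prickle1 f/f MiC females, both C57BL/6J and aged 6 months, with 3 mice pooled in each. Both groups carry the f/f alleles, the genotype field reads wild-type for both, and no label explains MiC or names the cells in which it acts. The tissue was digested for 5 hours with collagenase, per the labels' protocols.

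Prostaglandin synthesis starts when a phospholipase releases arachidonic acid, which a cyclooxygenase turns into prostaglandin H2. Ptgs1 encodes the cyclooxygenase that many cells hold at a steady level, and Ptgs2 encodes the one induced by cytokines, growth factors and handling of tissue. Terminal synthases then make prostaglandin E2, prostacyclin or prostaglandin D2, which act through receptors on nearby cells, and 15-hydroxyprostaglandin dehydrogenase (Hpgd) inactivates the product. In the uterus these lipids are known for their part in contraction of the myometrium, in implantation and in labour.

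The library labelled control held 3490 cells and the library labelled cKO 3586, with medians of 4953 and 4903 unique molecular identifiers (UMIs, each standing for 1 captured transcript) per cell. Only 6 cell barcodes occurred in both. Cells fell into 21 clusters and 11 classes, each called X-like from its marker genes, and 6 classes with at least 100 cells in each library were compared. The libraries differed in their mix: epithelium-like cells numbered 1311 in the library labelled control and 109 in that labelled cKO, fibroblast-like cells 862 and 1365, smooth muscle-like cells 315 and 682, and T or NK cell-like cells 347 and 750. Macrophage or monocyte-like cells numbered 311 and 223, and dendritic cell-like cells 159 and 213. Prickle1, the floxed gene, gave 2.56 CPM (counts per 1000000 UMIs of the cells summed) over all cells of the library labelled control. In that labelled cKO it gave 9.03 CPM, 3.53 times as much (2.78 to 4.51), with cells in another mix. Within classes, cKO over control was 1.98 (1.40 to 2.85) in fibroblast-like and 1.69 (0.92 to 3.30) in smooth muscle-like cells. Lymphatic endothelium-like cells had 0.664 (0.268 to 1.79). T or NK cell-like cells had 3.14 (1.39 to 8.32) and epithelium-like cells 4.13 (1.19 to 11.7), the latter on 17 and 5 UMIs. The remaining classes held at most 6 UMIs in a library. How far the mix shapes the all-cell value was not tested. A 3-prime count need not lie in the deleted part, so these values do not check the labels, and the directions below are between libraries as labelled. The 6 haemoglobin and red cell markers summed to between 5.35 CPM and 47.3 CPM in the dendritic cell-like, macrophage or monocyte-like, T or NK cell-like and smooth muscle-like cells of the library labelled control, and to between 972 CPM and 2183 CPM in those of the library labelled cKO. They went the other way in fibroblast-like cells (328 CPM and 234 CPM) and epithelium-like cells (91.9 CPM and 3.71 CPM).

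Each level below is the CPM of UMIs summed over a class in a library, with an exact Poisson 95% interval. A ratio is cKO over control with an exact conditional 95% interval, and a log2 ratio is taken after 5 CPM was added to both levels. These intervals cover counting error only. With 1 library per group there is no replicate error and no test, so a difference compares these 2 libraries. A gene was tested against a limit of 2-fold (a log2 ratio of at least 1 or at most -1) where its mean over both libraries reached 10 CPM. UMIs of free RNA were estimated from barcodes of at most 100 UMIs, at the rate seen for 5 fibroblast genes in T or NK cell-like cells (18.1% of UMIs with the control label and 14.2% with the cKO label, an upper estimate).

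The inducible cyclooxygenase Ptgs2 was found mainly in myeloid cells, epithelium-like cells and mesothelium-like cells, and hardly in smooth muscle. Macrophage or monocyte-like cells had the highest level in both libraries, 2400 CPM (interval 2342 to 2459, library labelled control) and 3013 CPM (2930 to 3098, library labelled cKO). At least 1 Ptgs2 UMI was present in 61.4% and 64.1% of these cells, at median depths of 7733 and 5730 UMIs. In smooth muscle-like cells, at median depths of 1886 and 2013 UMIs, the share was 3.17% and 2.35%. Thinning every cell to 1000 UMIs left shares of 41.5% and 48.4% among the macrophages or monocytes, and of 0.952% and 1.47% among smooth muscle-like cells. Smooth muscle-like cells had 11.3 CPM and 15.7 CPM, under the free RNA estimates of 47.2 CPM and 34.8 CPM, and so were read as background. Dendritic cell-like cells came next with 820 CPM and 1647 CPM, then mesothelium-like cells with 626 CPM and 1551 CPM, lymphatic endothelium-like cells with 537 CPM and 442 CPM, and epithelium-like cells with 387 CPM and 458 CPM. Over the 2 libraries the ranges of dendritic cell-like and mesothelium-like cells overlap, as do those of lymphatic endothelium-like and epithelium-like cells, so these neighbours are not separated.

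**Figure D1:**
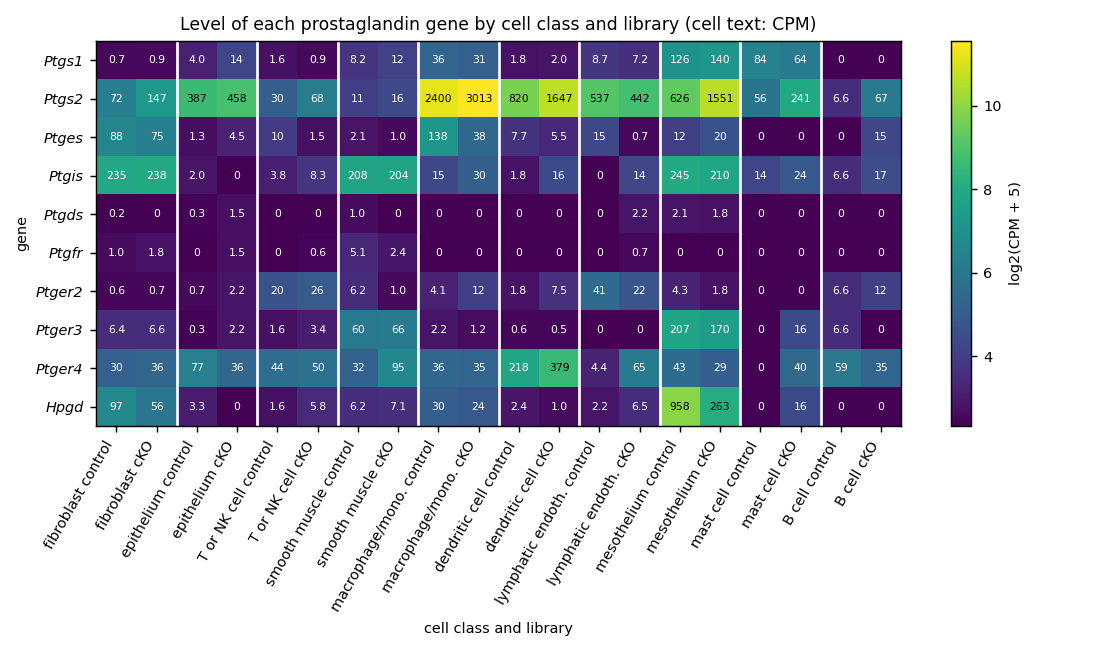
Level of each of the 10 genes (rows) in 10 cell classes and 2 libraries (columns), with colour giving log2(CPM + 5) and the printed number giving CPM. Ptgs2 is highest in macrophage or monocyte-like cells (2400 and 3013 CPM), Ptgis is near 200 CPM or above in fibroblast-like, smooth muscle-like and mesothelium-like cells, and Ptgds and Ptgfr are close to 0 in every column.

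Over all cells Ptgs2 stood at 448 CPM in both libraries, although the cells that held it differed. Epithelium-like cells gave 43.6% of its UMIs under the control label and 4.69% under the cKO label. Dendritic cell-like cells gave 8.21% and 25.1%, fibroblast-like cells 4.17% and 18.5%, and macrophage or monocyte-like cells 38.7% and 37.5%. These shares combine the cell counts given above with the level per class. Epithelium-like cells were far fewer in the library labelled cKO at a similar level, while dendritic cell-like and fibroblast-like cells were more numerous there and also had about 2-fold higher levels. Of the 7316 Ptgs2 UMIs of epithelium-like cells in the library labelled control, cluster 0 gave 500 and cluster 2 gave 2134. The rest came from cluster 6, led by Ankrd37 and Cited1, with 228 cells under the control label and 0 under the cKO label. Cells of cluster 6 were deep, with a median of 7.38 times the library's median UMIs.

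Few cells carried most of the Ptgs2 message. In the macrophage or monocyte-like class 20 of 311 cells held 50% of the UMIs in the library labelled control, and 14 of 223 in that labelled cKO. In the dendritic cell-like class it was 10 of 159 and 6 of 213 cells, and in fibroblast-like cells 10 of 862 and 15 of 1365. The extreme was the lymphatic endothelium-like class, where 1 of 31 cells of the library labelled control gave 95.1% of the 246 UMIs.

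The 2 cyclooxygenase genes differ in sequence just before their annotated starts. The 250 bases before each start are shown because Ptgs2, but not Ptgs1, carries several of the motifs searched there (RefSeq, GRCm38.p6, both + strand, Ptgs1 at chr2:36230176-36230425 and Ptgs2 at chr1:150099781-150100030). Capitals mark matches, on either strand, to a GC box (GGGCGG), an NF-kB type site (GGGNNNTCC), a C/EBP type site (TTNNGNAA), an AP-1 site (TGANTCA), a CRE core (TGACG), an E box (CACGTG) or a TATA box (TATAAA).
Ptgs1: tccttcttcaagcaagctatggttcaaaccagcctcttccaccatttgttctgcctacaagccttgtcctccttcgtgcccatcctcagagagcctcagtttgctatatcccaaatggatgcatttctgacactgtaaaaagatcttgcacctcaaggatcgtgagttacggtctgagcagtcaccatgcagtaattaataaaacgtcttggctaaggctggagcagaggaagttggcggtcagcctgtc
Ptgs2: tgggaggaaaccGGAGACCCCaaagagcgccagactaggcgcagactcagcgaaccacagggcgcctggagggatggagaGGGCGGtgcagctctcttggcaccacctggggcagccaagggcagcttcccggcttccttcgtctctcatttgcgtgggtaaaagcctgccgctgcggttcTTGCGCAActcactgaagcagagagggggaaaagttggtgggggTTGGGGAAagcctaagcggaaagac

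Reading from the left, the capitals in Ptgs2 are 1 NF-kB type match, 1 GC box and 2 C/EBP type matches. In the first 50 bases after the Ptgs2 start, which are not printed, a CRE core match on the other strand began at base 14 and an E box match at base 17, so these 2 overlap. The window of Ptgs1 held no match to any of the 7 motifs. Among 32851 promoter windows of 300 bases, 35.7% held a GC box, 17.8% an NF-kB type site, 40.7% a C/EBP type site, 20.8% a CRE core, 7.15% an E box, 7.81% an AP-1 site and 13.6% a TATA box. The upstream sequence was 48.0% G or C for Ptgs1 and 61.6% for Ptgs2, against a median of 52.4% over all promoters. A match in letters is not a measured binding site, and a window without one says nothing about a factor.

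Between the libraries, Ptgs2 of dendritic cell-like and fibroblast-like cells stood about 2-fold higher in the library labelled cKO. In dendritic cell-like cells the level was 820 CPM (777 to 864) against 1647 CPM (1591 to 1704), a ratio of 2.01 (1.89 to 2.14) and a log2 ratio of 1.00. This just reached the limit, and 6.93% of the 7055 genes tested in that class passed 2-fold in either direction, with 3.84% of all genes tested higher and 3.09% lower in the library labelled cKO. Of the 2 prostaglandin genes with at least 10 CPM there, Ptgs2 passed and Ptger4, with a log2 ratio of 0.79, did not. The share of dendritic cell-like cells with a Ptgs2 UMI was 42.8% against 43.7%, and 27.7% against 25.4% after thinning, so the shares were close while the summed level was not. A single cell gave 15.8% of the UMIs in the library labelled cKO, without the top cell of each library the log2 ratio was 0.89, and the mean over cells of each cell's own CPM gave 0.49. A list of 16 cytokine response genes was higher in the same cells, with 15 of 16 genes above the library labelled control and 0.341% against 0.561% of UMIs. Of 16 dissociation response genes 12 were higher and 4 lower, at 0.560% against 0.663% of UMIs. Fibroblast collagens, Dcn and Lum were also higher there, all 5 past 2-fold, at a sum of 143 CPM and 652 CPM. The part of any of these lists in the Ptgs2 difference was not tested.

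In fibroblast-like cells Ptgs2 was 71.5 CPM (66.3 to 77.0) against 147 CPM (141 to 153), a log2 ratio of 0.99, just short of the limit. None of the 5 prostaglandin genes with at least 10 CPM passed 2-fold in this class, where 2.07% of 7830 genes did (1.4% higher and 0.664% lower). The 6 fibroblast-like clusters did not share one direction. Cluster 15, led by Il6, Ptx3, Cxcl5 and Has2, had 140 CPM (126 to 156) of Ptgs2 in the library labelled control against 378 CPM (361 to 396) in the library labelled cKO, and cluster 8, led by Mustn1 and C1qtnf3, had 42.0 CPM and 84.4 CPM. In cluster 14, led by Hsd11b2 and Scara5, the level was 148 CPM against 71.7 CPM, and in the shallow cluster 11 it was 81.6 CPM against 8.75 CPM (45 and 2 UMIs). The mean of the log2 ratios within clusters was -0.19 over the 5 clusters with at least 20 cells of each library, against 0.99 for the summed class. Without cluster 11 that mean was 0.43 and without cluster 14 it was 0.02, so its negative sign rests on both of these clusters. The alternative without cluster 11 was chosen after seeing the data. Over 14 other processing alternatives the class log2 ratio stayed positive in 13 and short of the limit in 5. The highest was 1.99, with free RNA subtracted. The share of cells with a UMI was 12.2% and 16.4%. The free RNA estimate stands at 66.0% and 23.7% of the class levels. Cytokine response genes made up 1.45% and 1.83% of the UMIs of cluster 15, with 12 of 16 higher in the library labelled cKO. In cluster 8 they made up 0.467% and 0.493%, with 10 higher and 6 lower. In cluster 14 it was 0.360% and 0.256%, with 8 higher and 8 lower. Over the class it was 0.696% and 0.789%, with 11 higher and 5 lower. Dissociation response genes of the class made up 0.554% and 0.532%, with 6 higher and 10 lower. The part of these lists in the Ptgs2 difference was not tested.

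**Figure D2:**
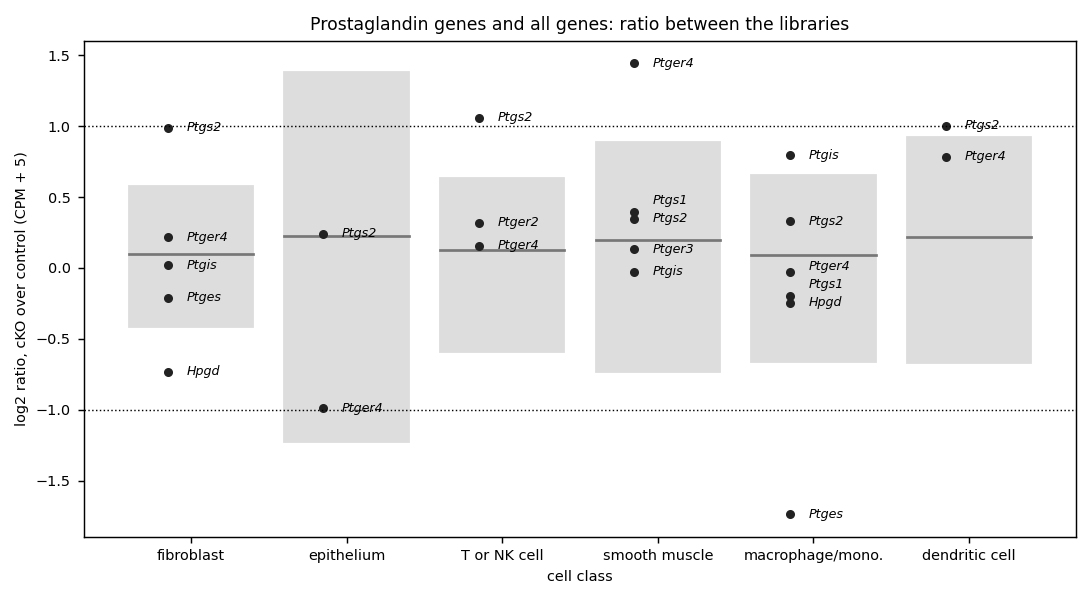
Log2 ratio of cKO over control for each prostaglandin gene with a mean of at least 10 CPM (points) in 6 cell classes, with the grey box from the 5th to the 95th percentile of all genes tested in the class, the grey line at their median and dotted lines at the 2-fold limit. Of 23 points, 4 lie at or past the limit: Ptger4 in smooth muscle, Ptgs2 in T or NK cells and in dendritic cells, and Ptges in macrophages.

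Macrophage or monocyte-like cells, with the highest Ptgs2 level, differed less, by a ratio of 1.26 (1.21 to 1.30) and a log2 ratio of 0.33. Here too 15 of 16 cytokine response genes were higher in the library labelled cKO, at 1.69% and 2.65% of UMIs. Of 16 dissociation response genes 9 were higher and 7 lower, at 0.792% and 0.861%. In epithelium-like cells the ratio was 1.18 (1.09 to 1.29). Of 16 cytokine response genes 5 were higher and 11 lower there, at 0.174% and 0.0918% of UMIs. The cKO cells of this class were nearly all of cluster 2, and within that cluster Ptgs2 was 367 CPM and 457 CPM, while the mean over cells gave a log2 ratio of -0.07 for the class.

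In T or NK cell-like cells Ptgs2 had 29.95 CPM (55 UMIs) and 67.8 CPM (221 UMIs), a log2 ratio of 1.06. It was 1 of 3 prostaglandin genes tested there, beside 2.8% of 8325 genes past 2-fold (0.829% higher and 1.97% lower). The level in the library labelled control was under the free RNA estimate of 47.2 CPM, and the estimate of 34.8 CPM came to 51.4% of the level in that labelled cKO. Only 4.61% and 5.20% of the cells had a UMI, and 1 cell gave 34.5% and 34.8% of the UMIs. With the highest Scrublet scores removed the log2 ratio was 0.65. In this class 14 of 16 dissociation response genes were higher in the library labelled cKO, at 0.217% and 0.301% of UMIs. Of 16 cytokine response genes 10 were higher and 6 lower, at 0.163% and 0.231%. The part of these lists in the Ptgs2 difference was not tested.

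The smaller classes rest on fewer cells. Mesothelium-like cells (82 and 30) had 626 CPM (577 to 679) and 1551 CPM (1448 to 1659), with 43.5% and 50.6% of the UMIs in 1 cell. Positive cells were 37 of 82 and 9 of 30. The log2 ratio of 1.30 became 0.15 as the mean over cells. All 16 genes of the dissociation response list were higher in the mesothelium-like cells of the library labelled cKO, at 1.27% and 1.86% of UMIs. Of 16 cytokine response genes 7 were higher and 9 lower in these cells, at 0.199% and 0.189%. The part of these lists in the Ptgs2 difference was not tested. In lymphatic endothelium-like cells (31 and 102) the log2 ratio of -0.28 became 3.39 without the top cell of each library. Mast cell-like cells (42 and 53) had 4 and 30 Ptgs2 UMIs.

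Ptgs1, the constitutive cyclooxygenase, had another distribution. Mesothelium-like cells had the highest level, 126 CPM (104 to 151) and 140 CPM (111 to 176), with 42.7% and 56.7% of cells positive. Mast cell-like cells followed with 83.6 CPM and 64.3 CPM on 6 and 8 UMIs, and macrophage or monocyte-like cells with 35.8 CPM (29.1 to 43.7) and 30.5 CPM (22.7 to 40.3). The mast cell interval overlaps both of its neighbours. Smooth muscle-like cells had 8.23 CPM and 12.4 CPM. Fibroblast-like cells had 0.715 CPM and 0.907 CPM, and T or NK cell-like cells 1.63 CPM and 0.921 CPM. Both classes were under the free RNA estimates of 1.68 CPM and 1.47 CPM, and so were read as background and not ranked. In epithelium-like cells Ptgs1 was 4.02 CPM (76 UMIs) and 14.1 CPM (19 UMIs), a ratio of 3.51 (2.00 to 5.86) at a mean below the 10 CPM filter. Within cluster 2, which holds nearly all cKO cells of the class, it was 5.67 CPM and 14.2 CPM, a ratio of 2.51 (1.35 to 4.55).

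Ptges encodes microsomal prostaglandin E synthase, the inducible enzyme that works downstream of Ptgs2. It was highest in fibroblast-like cells and macrophages. The other classes had at most 20.1 CPM, on 24 UMIs or fewer, against free RNA estimates of 2.73 CPM and 2.47 CPM. Its promoter stretch is shown because the enzyme works with Ptgs2, and so the 2 can be read side by side (RefSeq, GRCm38.p6, - strand, chr2:30903298-30903547), with capitals as above.
Ptges: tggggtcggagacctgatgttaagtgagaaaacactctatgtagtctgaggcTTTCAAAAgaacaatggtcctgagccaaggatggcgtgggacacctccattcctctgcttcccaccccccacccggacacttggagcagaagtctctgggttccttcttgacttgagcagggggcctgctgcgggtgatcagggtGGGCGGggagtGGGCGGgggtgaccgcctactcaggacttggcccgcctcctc

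The capitals are 1 C/EBP type match and 2 GC boxes, and the window held none of the other 5 motifs. Ptgs2, Ptgfr and Hpgd also held both of these motifs. In macrophage or monocyte-like cells Ptges was 138 CPM (124 to 153) in the library labelled control, from 373 UMIs, and 37.9 CPM (29.0 to 48.6) in that labelled cKO, from 62 UMIs. The ratio was 0.275 (0.207 to 0.360) and the log2 ratio -1.74, the opposite direction to Ptgs2 in the same cells. Of the 6 prostaglandin genes tested in this class only Ptges passed 2-fold, and 3.54% of 7055 genes did (1.06% higher and 2.48% lower). Few cells carried it: 38 of 311 cells (12.2%) and 15 of 223 cells (6.73%) had a UMI, 5 and 2 cells held 50% of the UMIs, and the thinned shares were 5.14% and 3.59%. The log2 ratio was -2.06 without the top cell of each library, but -0.95 after thinning and -0.83 as the mean over cells, both short of the limit.

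In fibroblast-like cells Ptges was 87.7 CPM (81.9 to 93.7) and 75.1 CPM (71.0 to 79.4), with 27.5% and 29.0% of cells positive. In T or NK cell-like cells 0.576% and 0.533% were positive. Cluster 20, led by Scube1 and A2m and drawn mostly from the library labelled cKO (17 and 221 cells), had 176 CPM (130 to 233) and 145 CPM (134 to 156), with 64.7% and 61.1% of cells positive. Cluster 15 had 139 CPM (125 to 154) and 51.6 CPM (45.4 to 58.4), for a ratio of 0.372 (0.315 to 0.438), and cluster 8 had 81.6 CPM and 45.1 CPM. In cluster 15 Ptges was thus lower in the library labelled cKO while Ptgs2 was higher. Without cluster 20 and the other clusters drawn over 90% from 1 library, the class log2 ratio was -0.74 in place of -0.21. Ptges UMIs were present in 34.3% of Ptgs2-positive and 26.6% of Ptgs2-negative fibroblast-like cells of the library labelled control, and in 35.7% and 27.7% of those labelled cKO. These shares are not matched for depth, and deeper cells are positive more often for any gene.

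**Figure D3:**
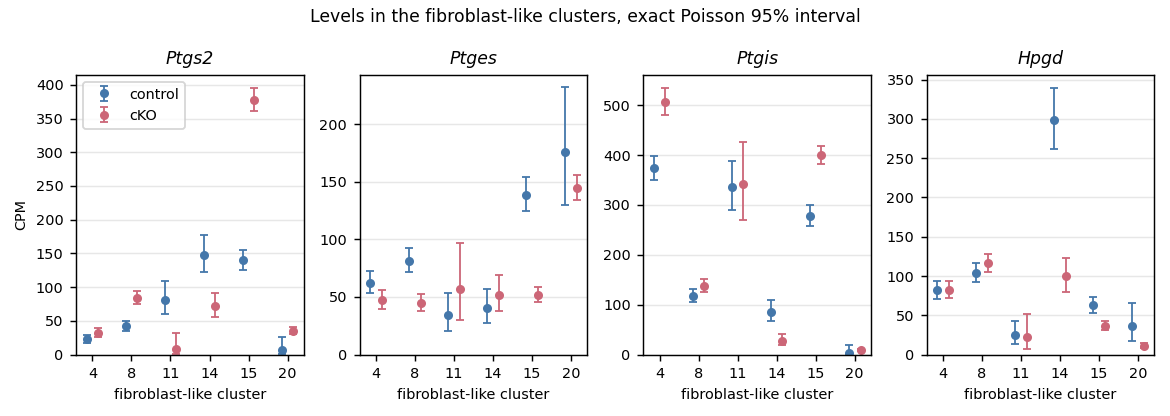
CPM of Ptgs2, Ptges, Ptgis and Hpgd (panels) in 6 fibroblast-like clusters (x axis) in the library labelled control (blue) and that labelled cKO (red), with exact Poisson 95% intervals. In cluster 15 Ptgs2 is 140 and 378 CPM while Ptges is 139 and 51.6 CPM, and in cluster 14 Hpgd is 299 and 99.8 CPM.

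Ptgis, prostacyclin synthase, marked the stromal and muscle cells and was close between the libraries in each. Fibroblast-like cells had 235 CPM (225 to 244) and 238 CPM (230 to 245), for a ratio of 1.01 (0.962 to 1.07). Smooth muscle-like cells had 208 CPM (180 to 238) and 204 CPM (185 to 224), for a ratio of 0.982 (0.829 to 1.17), and mesothelium-like cells had 245 CPM (214 to 279) and 210 CPM (173 to 252). These 3 classes overlap in their intervals. Positive cells made up 57.0% and 45.3% of fibroblast-like cells and 32.7% and 30.8% of smooth muscle-like cells, against 2.02% and 1.47% of T or NK cell-like cells at median depths of 4463 and 3714 UMIs. Fibroblast-like cells were deeper, at medians of 9541.5 and 10164 UMIs against 1886 and 2013 UMIs in smooth muscle-like cells. After thinning, the shares were close, at 17.5% and 16.2% of fibroblast-like and 15.9% and 14.7% of smooth muscle-like cells. Within the fibroblast-like class the level spanned a wide range: cluster 4, led by Frzb and Nog, had 373 CPM (351 to 397) and 507 CPM (481 to 535), and cluster 15 had 278 CPM and 400 CPM. Cluster 14 had 86.2 CPM and 28.0 CPM, a ratio of 0.325 (0.197 to 0.521). The even class value thus sums clusters that differ in both directions. Over all cells Ptgis was 75.1 CPM and 157 CPM, beside the larger numbers of fibroblast-like and smooth muscle-like cells in the library labelled cKO.

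Ptgds, lipocalin-type prostaglandin D synthase, gave 11 and 6 UMIs in all cells, and its highest class level was 2.17 CPM, on 3 UMIs. No class holds enough for a comparison.

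**Figure D4:**
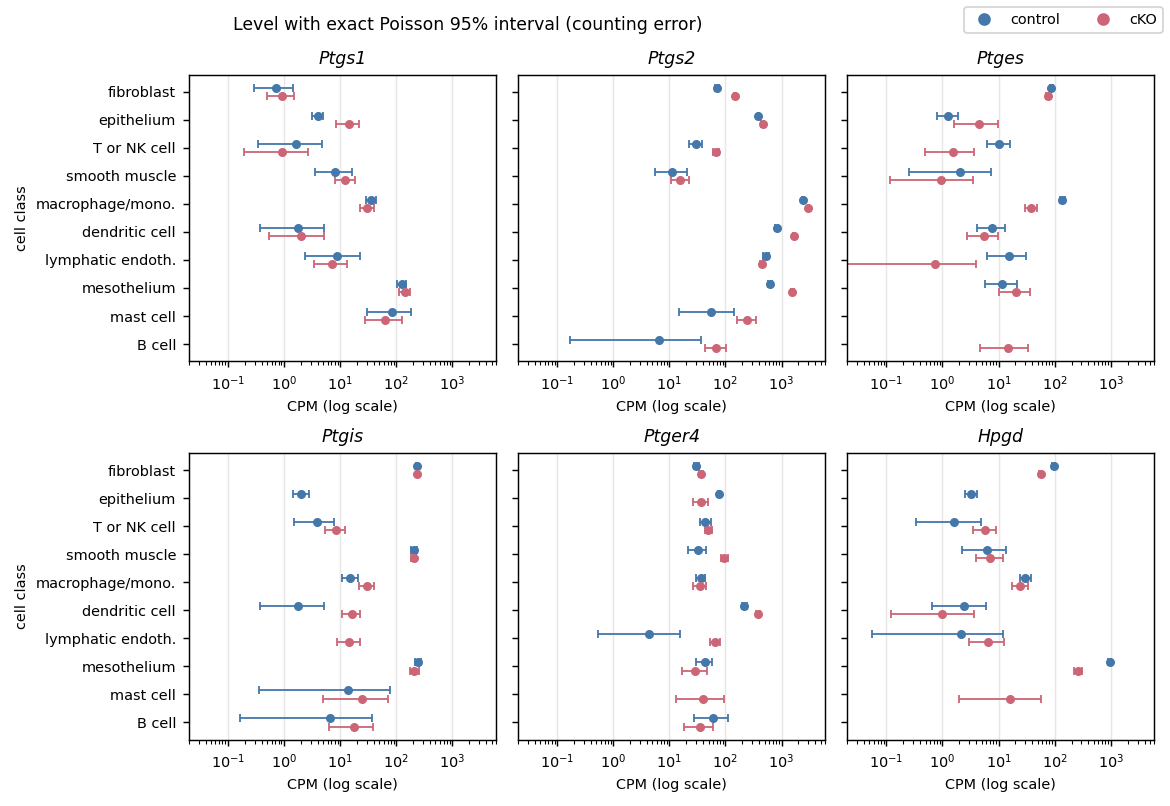
Level in CPM (log x axis) of 6 genes by cell class (y axis) in the library labelled control (blue) and that labelled cKO (red), with exact Poisson 95% intervals, and no point where no UMI was found. The intervals of Ptges in macrophages (138 and 37.9 CPM), Ptger4 in smooth muscle (31.9 and 95.3 CPM) and Hpgd in mesothelium (958 and 263 CPM) are apart.

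Among the receptors, Ptger4 was the most widely found and Ptger3 and Ptger2 were narrower. Ptger4 encodes EP4, a prostaglandin E2 receptor that raises cyclic AMP and is known for relaxing smooth muscle and for its effects on immune cells. Its level was highest in dendritic cell-like cells, 218 CPM (196 to 241) and 379 CPM (352 to 407), for a ratio of 1.74 (1.53 to 1.98) that did not pass the limit. There 55.3% and 67.6% of cells had a UMI, against 6.03% and 14.8% of smooth muscle-like cells.

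In smooth muscle-like cells Ptger4 was 31.9 CPM (21.7 to 45.2) from 31 UMIs in the library labelled control, against 95.3 CPM (82.5 to 109) from 200 UMIs in that labelled cKO. The ratio was 2.99 (2.04 to 4.52) and the log2 ratio 1.44. It was the only 1 of 5 prostaglandin genes tested in this class to pass 2-fold, and 4.88% of 8178 genes did (3.17% higher and 1.71% lower). Positive cells were 19 of 315 and 101 of 682, and the thinned shares were 2.54% and 5.43%. Both clusters of the class pointed the same way: cluster 5 had 51.3 CPM (33.8 to 74.7) and 124 CPM (107 to 142), and cluster 9 had 8.96 CPM and 17.8 CPM on 4 and 10 UMIs. Cluster 5 made up 89 of 315 and 333 of 682 cells, so the class value also holds a change in their mix, and the mean within clusters gave a log2 ratio of 0.95. The free RNA estimate was 9.04 CPM and 3.86 CPM. Dissociation response genes made up 1.60% and 1.07% of UMIs in this class, with 13 of 16 lower in the library labelled cKO. Of 16 cytokine response genes 13 were higher and 3 lower, at 0.0848% and 0.0983%. Fibroblast markers summed to 1404 CPM and 689 CPM over 7 of 7 genes. The part of these in the Ptger4 difference was not tested. The Ptger4 gene (chr15:5206661-5244187, - strand, GRCm38) overlaps Ttc33 on the other strand, and how reads of the overlap were counted is not given in the sources used here.

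In epithelium-like cells Ptger4 was lower in the library labelled cKO, 77.1 CPM (73.2 to 81.2) against 36.4 CPM (26.9 to 48.1) from 49 UMIs. The log2 ratio of -0.99 fell just outside the limit, and 19.5% of 7951 genes passed 2-fold in this class (12.2% higher and 7.33% lower), so the value does not stand out there. None of the 2 prostaglandin genes tested in the class passed. Within cluster 2 the levels were 82.5 CPM and 36.7 CPM. Macrophages or monocytes, T or NK cell-like cells and fibroblast-like cells had 30.3 CPM to 49.7 CPM over both libraries, with ratios from 0.979 to 1.19. Lymphatic endothelium-like cells had 4.37 CPM (2 UMIs) and 65.2 CPM (90 UMIs), a ratio of 14.9 (4.01 to 125), and a log2 ratio of 2.91 that was 0.25 after thinning.

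Ptger3 encodes EP3, which lowers cyclic AMP and is known for contraction of the myometrium. It was found in mesothelium-like cells, at 207 CPM (179 to 238) and 170 CPM (137 to 208), and in smooth muscle-like cells, at 59.6 CPM (45.3 to 77.1) and 65.7 CPM (55.2 to 77.7). The ratio in smooth muscle was 1.10 (0.806 to 1.52), so a difference between these libraries was not detectable at this depth. Every other class had at most 16.1 CPM. Positive cells made up 10.2% and 14.1% of smooth muscle-like cells and 0.576% and 0.667% of T or NK cell-like cells.

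Ptger2 encodes EP2, the other receptor here that raises cyclic AMP, and was found in lymphatic endothelium-like cells (41.5 CPM and 21.7 CPM, on 19 and 30 UMIs) and T or NK cell-like cells (20.2 CPM and 26.4 CPM). Their intervals overlap. In the lymphatic class 1 cell gave 63.2% of the Ptger2 UMIs of the library labelled control and 1 cell 40.0% of those labelled cKO. Positive cells there were 6 of 31 and 10 of 102. Among T or NK cell-like cells Ptger2 was concentrated in cluster 7, led by Cd163l1 and Trdc, with 65.5 CPM (43.5 to 94.7) and 62.9 CPM (49.3 to 79.0). That cluster held 28 of the 37 UMIs of the class in the library labelled control and 73 of 86 in that labelled cKO. Ptgfr, the prostaglandin F2-alpha receptor known for its role in labour, gave 15 and 40 UMIs in all. Smooth muscle-like cells held 5 UMIs in each library, 5.14 CPM (1.67 to 12.0) and 2.38 CPM (0.773 to 5.56), and fibroblast-like cells held 10 and 30.

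Hpgd, the enzyme that inactivates prostaglandins, was found in mesothelium-like and fibroblast-like cells. Mesothelium-like cells had 958 CPM (896 to 1023) from 899 UMIs in the library labelled control and 263 CPM (222 to 309) from 144 UMIs in that labelled cKO, a ratio of 0.274 (0.228 to 0.327). The share of positive cells went the other way, 64.6% of 82 and 76.7% of 30. After thinning the shares were 40.2% and 40.0% and the log2 ratio -0.23, and the mean over cells gave -0.47, in place of -1.85. The difference in the summed level was thus far smaller once cells had equal depth or weight, and 6 and 5 cells held 50% of the UMIs. This class also held fibroblast markers (9850 CPM and 12927 CPM summed over 7 genes) and epithelial markers (1817 CPM and 2051 CPM), beside 1180 CPM and 1644 CPM of the 5 mesothelial markers.

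Fibroblast-like cells had 96.9 CPM (90.8 to 103) and 56.3 CPM (52.8 to 60.1) of Hpgd, a ratio of 0.581 (0.531 to 0.637) that did not pass 2-fold. Lower levels in the library labelled cKO were seen in cluster 14, with 299 CPM (262 to 340) and 99.8 CPM (80.1 to 123), in cluster 15, with 62.8 CPM and 36.4 CPM, and in cluster 20, with 35.9 CPM and 11.5 CPM. Cluster 20 has low Hpgd and came mostly from the library labelled cKO, and without it the class log2 ratio was -0.41 in place of -0.73. Clusters 4 and 8 were close, with ratios of 1.01 (0.833 to 1.22) and 1.12 (0.960 to 1.30). Macrophage or monocyte-like cells had 29.9 CPM and 24.4 CPM, and T or NK cell-like cells 1.63 CPM and 5.83 CPM. The gene (chr8:56294585-56321043, + strand, GRCm38) overlaps Gm45540 on the same strand, as Ptges (chr2:30889471-30929863, - strand) does Gm13400, so reads of the shared stretches are uncertain.

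**Figure D5:**
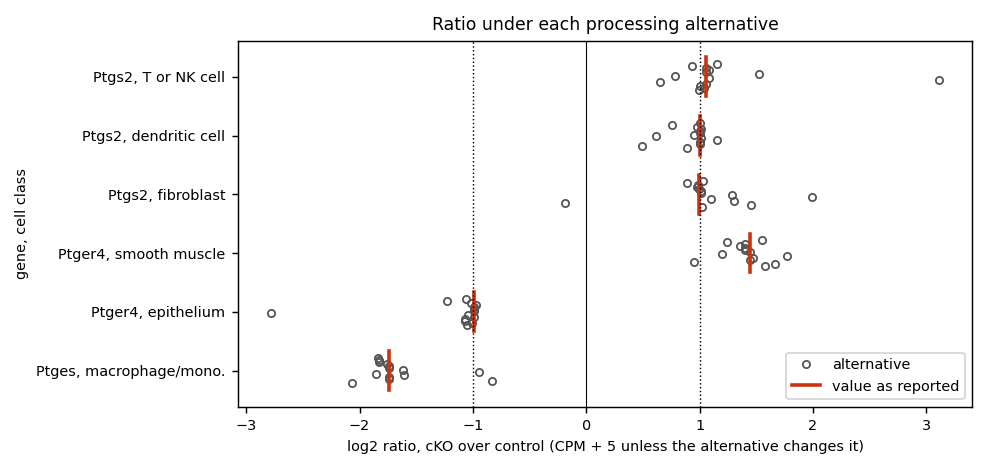
Log2 ratio of cKO over control as reported (red bar) and under each of 14 processing alternatives (open circles) for 6 pairs of gene and class, with dotted lines at the 2-fold limit. The 4 ratios past the limit keep their sign in every alternative, and none stays past the limit in all 14. Ptgs2 in fibroblasts runs from -0.19 when clusters are weighted equally (0.43 without cluster 11) to 1.99 with free RNA subtracted.

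The rest of the pathway was read from 24 other genes of prostanoid synthesis, sensing, transport and breakdown and 11 leukotriene and lipoxygenase genes. In 5 of the 6 classes compared, none of either list passed 2-fold, over 6 to 10 tested prostanoid genes and 1 to 5 tested leukotriene genes per class. In epithelium-like cells 4 of 10 tested prostanoid genes were higher in the library labelled cKO, beside 12.2% of all genes tested there, and none was lower. The list's median log2 ratio was 0.87 beside 0.22 over all genes. These were Hpgds, the haematopoietic prostaglandin D synthase, with 3.44 CPM (2.65 to 4.38) and 66.1 CPM (53.1 to 81.3), Ptgr1, a prostaglandin reductase, with 5.71 CPM and 60.9 CPM, Abcc4, a transporter that exports prostaglandins, with 17.5 CPM and 52.7 CPM, and Cbr1, a carbonyl reductase, with 12.6 CPM and 34.1 CPM. Hpgds and Ptgr1 were under 10 CPM in the library labelled control and met the filter only through their level in that labelled cKO. Clusters 0 and 6 of the class held 577 and 228 control cells but 4 and 0 cKO cells. The count and the median thus also hold this difference in mix. Of 109 cells, 22 had a Hpgds UMI and only 7 a Ptgr1 UMI, with 43.9% of Ptgr1 in 1 cell. Within cluster 2, which holds 506 control and 105 cKO cells, Hpgds had 3.09 CPM and 66.7 CPM and Ptgr1 16.7 CPM and 61.4 CPM. Abcc4 had 17.9 CPM and 52.4 CPM there, and Cbr1 21.99 CPM and 34.5 CPM, so Ptgr1 and Cbr1 differed less between like cells. The log2 ratio of Cbr1 in the cluster was 0.55, short of the limit, and no share over all genes was taken there. Alox5ap, which hands arachidonic acid to 5-lipoxygenase, was lower at 29.0 CPM and 8.17 CPM, and Alox12, a 12-lipoxygenase, at 25.8 CPM and 3.71 CPM. Within cluster 2 Alox5ap had 41.8 CPM and 8.24 CPM and Alox12 had 5.84 CPM and 3.75 CPM.

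By the mean of both libraries, these other genes had their highest levels in a few classes. Mast cell-like cells were highest for Hpgds (446 CPM and 466 CPM), Ptges3 (752 CPM and 611 CPM), Alox5 (251 CPM and 201 CPM) and Alox5ap (362 CPM and 418 CPM). Hpgds makes the prostaglandin D2 that mast cells are known for, and Alox5 and Alox5ap start leukotriene synthesis. Mesothelium-like cells were highest for Akr1b3 (381 CPM and 396 CPM), an aldose reductase with prostaglandin F synthase activity, and for Slco2a1 (109 CPM and 106 CPM), the prostaglandin uptake transporter. Epithelium-like cells were highest for Pla2g4a (48.9 CPM and 86.1 CPM), the cytosolic phospholipase that releases arachidonic acid, and for Alox15 (63.1 CPM and 108 CPM). Pla2g12a was highest in lymphatic endothelium-like cells (82.9 CPM and 49.2 CPM), Abcc4 in dendritic cell-like cells (54.1 CPM and 47.0 CPM), Ptgr1 in macrophage or monocyte-like cells (49.9 CPM and 55.6 CPM) and Lta4h in T or NK cell-like cells (61.0 CPM and 85.0 CPM). In the library labelled cKO alone, Abcc4 and Ptgr1 were higher in epithelium-like cells, as given above.

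The genes most like each prostaglandin gene were read over 20 groups, the 10 classes in both libraries, among 7526 genes that reached 50 CPM in at least 1 group. Likeness is Pearson's r of log2(CPM + 5), given as a description, since groups of a library share its depth and free RNA. Ptgis was closest to Twist1 (0.98), Ogn (0.94) and Col16a1 (0.94), Ptger3 to Cdh3 (0.95), Trdn (0.94) and Flrt1 (0.92), and Hpgd to C1ra (0.91), Steap4 (0.90) and Rarres2 (0.90). Ptger2 was closest to Zdhhc2 (0.88), Sept6 (0.82) and Gimap4 (0.80), Ptger4 to Zfp217 (0.87), Idi1 (0.86) and Lactb (0.85), and Ptges to Lpl (0.85), Pltp (0.84) and Gpnmb (0.84). Ptgs2 was closest to Homer3 (0.85), Rnh1 (0.82) and Anxa4 (0.81), and Ptgs1 to Olr1 (0.81), Rgs10 (0.79) and Bmp2 (0.78). Ptgds and Ptgfr had too few UMIs to be compared.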

How the data were processed

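Whole mouse uterus was profiled as 2 droplet single-cell libraries, each a pool of 3 mice. The authors deposited unfiltered UMI counts for every barcode, from Cell Ranger 4 per the file headers, while the submitters' processing notes name Cell Ranger 6.1.1 and mm10. The libraries held 45035801 UMIs (control) and 34261441 UMIs (cKO), and 83.4% and 85.7% of these lay in cells. A barcode was kept as a cell from 1000 UMIs and 500 genes upwards, with mitochondrial UMIs up to 20%.

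Cells were clustered together with scanpy 1.11.5 (2000 variable genes without the prostanoid genes, 30 principal components, 15 neighbours, Leiden resolution 1.0) under Python 3.11.15. No batch correction was made. A cluster took an X-like name from at least 3 detected markers, and all 21 clusters were named. Scrublet's automatic threshold marked 4 of 7076 cells (0.0565%), so it did not work and doublets must be assumed to remain.

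UMIs were summed per class and library, and intervals are exact Poisson, Clopper-Pearson or conditional 95% intervals. Named genes were all 10 prostaglandin genes, other pathway genes past 2-fold or with a top level of at least 50 CPM, and the 3 genes most like each prostaglandin gene with at least 50 UMIs per library. The genes and lists were chosen with earlier results of these data known. The summing and ratio steps were tested on simulated data. Of 32285 gene identifiers, 32158 occur in GENCODE vM21, whose GRCm38 coordinates are given, and 9 of the 10 genes matched the RefSeq promoter table. Alternatives changed the pseudocount, scaling, filters, resolution, variable genes, depth, free RNA, doublets, cluster set, weights and top cell.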

Additional observations from a re-analysis of the deposited data

Results flagged for a closer look

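For 2 genes, a pair of classes had ratios in opposite directions between the libraries, and these differences were not tested, since each group has 1 library. Each pair was picked as the classes with the highest and the lowest ratio, among those whose intervals excluded a ratio of 1. The log2 ratio of Ptgs2 was 2.63 in B cell-like cells (1 and 23 UMIs) and -0.28 in lymphatic endothelium-like cells, a difference of 2.91. Both rest on single cells, with 13 of the 23 B cell UMIs in 1 cell and 95.1% of the control UMIs of the lymphatic class in 1 cell. The B cell-like class also differed in content between the libraries. Plasma cell markers summed to 52.7 CPM (control) and 37839 CPM (cKO) there, and epithelial markers to 1021 CPM and 61.1 CPM. The log2 ratio of Ptger4 was 2.91 in lymphatic endothelium-like cells (2 and 90 UMIs) and -0.99 in epithelium-like cells, a difference of 3.89. The lymphatic level under the control label, 4.37 CPM, was below the free RNA estimate of 9.04 CPM. In that class lymphatic markers summed to 11517 CPM (control) and 5862 CPM (cKO). Dendritic cell markers summed to 82.9 CPM and 397 CPM, and T or NK cell markers to 2.18 CPM and 199 CPM. The part of these in the Ptger4 difference was not tested.

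Barcodes of at most 100 UMIs, used above only to estimate free RNA, also differed between the libraries. Ptgis there had 58.6 CPM (control) and 113 CPM (cKO), a ratio of 1.94 (1.56 to 2.40). Ptger3 had 5.04 CPM and 15.3 CPM, a ratio of 3.03 (1.52 to 6.37) on 13 and 28 UMIs. Ptger4 went the other way there, with 50.04 CPM and 27.3 CPM, a ratio of 0.545 (0.385 to 0.761) on 129 and 50 UMIs. Over all cells the ratios of these 3 genes were 2.09, 1.38 and 1.04.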

How the results depend on the processing

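No paired analysis was possible because each group has 1 library and no test was made. Leaving out a replicate was not possible either. The 4 ratios past 2-fold in the 6 classes compared kept their sign in all 14 alternatives, and none stayed past 2-fold in all of them. Of 6 such ratios in the smaller classes, 6 kept their sign and 3 their side of the limit. The alternatives without the cell with most UMIs and, for Ptgs2 of fibroblast-like cells, without cluster 11 were chosen after seeing the data.

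Ptgs2 in T or NK cell-like cells (log2 ratio 1.06 as reported) was 1.53 at resolution 2, 3.11 with free RNA subtracted and 0.65 with the highest Scrublet scores removed. Ptgs2 in dendritic cell-like cells (1.00) was 0.76 with median of ratios scaling, 0.62 after thinning, 1.15 with the highest Scrublet scores removed, 0.49 as the mean over cells and 0.89 without the top cells. Ptges in macrophage or monocyte-like cells (-1.74) was -0.95 after thinning and -0.83 as the mean over cells. Ptger4 in smooth muscle-like cells (1.44) was 0.95 as the mean within clusters. The causes were not tested.

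The count of prostaglandin genes past 2-fold moved as follows. In T or NK cell-like cells it was 1, but 2 with no filter on low values, and 0 with median of ratios scaling, with the prostanoid genes allowed among the variable genes, with the highest Scrublet scores removed, as the mean within clusters and without the top cells. In dendritic cell-like cells it was 1, but 2 with no filter, and 0 with median of ratios scaling, at most 10% mitochondrial UMIs, the prostanoid genes allowed, thinning, the mean over cells and without the top cells. In epithelium-like cells it was 0, but 2 after thinning and as the mean over cells. There it was 1 with 1 CPM added, median of ratios scaling, no filter, at most 10% mitochondrial UMIs, free RNA subtracted, 1-library clusters left out, the mean within clusters and without the top cells. In fibroblast-like cells it was 0, but 1 with 1 CPM added, resolution 2, the prostanoid genes allowed, thinning, free RNA subtracted, the highest Scrublet scores removed, 1-library clusters left out, the mean over cells and without the top cells. In macrophage or monocyte-like cells it was 1, but 2 after thinning (Ptgs1 and Hpgd) and with free RNA subtracted (Ptges and Ptgis), and 0 as the mean over cells. In smooth muscle-like cells it was 1, but 0 as the mean within clusters. Median of ratios scaling set the median of all genes to 0 in each class, from 0.09 to 0.22 as reported.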

Other observations

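The 35 cells of the neutrophil-like cluster, too few for the comparisons, carried both cyclooxygenases. Ptgs2 had 4 UMIs in the 5 control cells and 99 UMIs (1341 CPM, 1090 to 1633) in the 30 cKO cells, where 1 cell gave 57.6%. Ptgs1 had 16 UMIs, all in 1 cell, and 14 UMIs (190 CPM, 104 to 318). Ptger2 had 0 and 4 UMIs, and the other 7 genes had none; so few cells allow no statement about their absence.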
